A study of Mus musculus with 57 samples.

Results

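Corticospinal neurons (CSN) of Sod1G86R mice were compared with CSN of wild-type (WT) mice at 105 days, the latest age sampled. The comparison rests on 6 of the 57 libraries of the series: 2 Sod1G86R libraries, numbered 9 and 13 by their titles, and 4 WT libraries, numbered 9, 11, 12 and 13. They were found by the age, genotype and cell type in their labels. RNA from mouse brain was read as normalized counts per gene in CSN and in control cells of both genotypes at 30, 60, 90 and 105 days, and the control cells of 105 days have 4 libraries per genotype. Mice labelled Sod1G86R, marked Tg in the sample titles, carry a mutant form of Sod1, and the WT mice carry none. The labels do not say what drives the mutant gene, how the cells were isolated, how many cells went into a library, or whether libraries came from separate animals, so p-values measure the spread between these libraries. With 2 Sod1G86R libraries, a rank of the 6 has 15 arrangements and an exact permutation p of 0.0667 at best, which cannot pass 0.05. The fit across all genes takes its spread from the 29 CSN libraries of all ages, and its median 95% interval at 105 days still reached 0.68 log2 units to either side.

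CSN are glutamatergic projection neurons of cortical layer V whose axons run to the spinal cord. They degenerate in amyotrophic lateral sclerosis (ALS) together with the motor neurons of the spinal cord and brainstem. SOD1 is a cytosolic enzyme that turns superoxide into oxygen and hydrogen peroxide, and mutations in it cause inherited ALS and make the protein prone to misfold. Misfolded protein is met by heat shock chaperones, by the ubiquitin-proteasome system and by autophagy, and stress in the endoplasmic reticulum (ER) is met by the unfolded protein response. The title of the series concerns CREB3, a transcription factor held in the ER membrane that is cut and released to the nucleus under stress.

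Levels are deposited normalized counts, not corrected for gene length. Fold changes are Sod1G86R minus WT on the log2(value + 34.6) scale, which understates changes of low genes. The threshold for a gene to pass was 0.05 on the limma p adjusted by Benjamini-Hochberg over all genes tested. Recovered reads were 52.0 M and 45.0 M in Sod1G86R libraries 9 and 13 and 31.1 M to 50.3 M in the WT libraries. WT library 13 stood apart, with 38016 genes above 0 against 32810 to 33562 in the other WT libraries, and with a summed level of oligodendrocyte markers of 346346 against 10215 to 63054. WT library 11 held the fewest astrocyte and oligodendrocyte transcripts of the 6. Sod1G86R library 9 correlated more closely with WT library 11 (Pearson r across genes 0.984) than with Sod1G86R library 13 (0.978). The label of the cells was borne out by their markers. The summed level of 22 CSN markers was 150046 and 168532 in Sod1G86R CSN and 105475 to 139405 in WT CSN, and it was 19024 to 31661 in Sod1G86R control cells and 20595 to 22644 in WT control cells. Every one of these markers was above 0 in each of the 6 CSN libraries.

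At 105 days 4 of 19093 genes passed (0.021%), with Sod1 and its pseudogene Gm8566 higher and Ndst3 and Fnbp1l lower in Sod1G86R CSN. A further count of 1531 genes had an unadjusted limma p under 0.05, those 4 included. On recovered reads, edgeR's quasi-likelihood test called 2 genes and DESeq2 called 18, with 2 higher and 16 lower. The median log2 fold change of all genes was -0.03. For 12.4% of genes both Sod1G86R libraries lay above all 4 WT libraries, and for 11.8% both lay below them. These shares are the background for the counts of separated members given for each gene group.

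Sod1 was read first as a check of the labels. Its level was 117488 in Sod1G86R library 9 and 172179 in Sod1G86R library 13, against 1878 to 3260 in the WT libraries. No Sod1G86R library came near a WT library. The log2 fold change was 5.76 (SE 0.304, adjusted p = 1.16e-13), and it kept its call in every alternative run. The fold changes at the earlier ages were 5.09 at 30 days, 5.38 at 60 days and 4.79 at 90 days, and the difference of 105 days from their mean was 0.67 (SE 0.338) and did not pass. Gm8566 is a processed pseudogene copy of Sod1 at chr6:67205619-67206083 (plus strand). It stood at 1229 and 1251 in Sod1G86R libraries 9 and 13, against 17.2 to 27.9 in the WT libraries (log2 fold change 4.53, SE 0.371). Of the 416 windows of 50 bases in the 465-base Gm8566 transcript, 137 (32.9%) also occur in a Sod1 transcript. Reads of that length from such windows cannot be assigned to either gene, so the value of Gm8566 is uncertain.

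**Figure D1:**
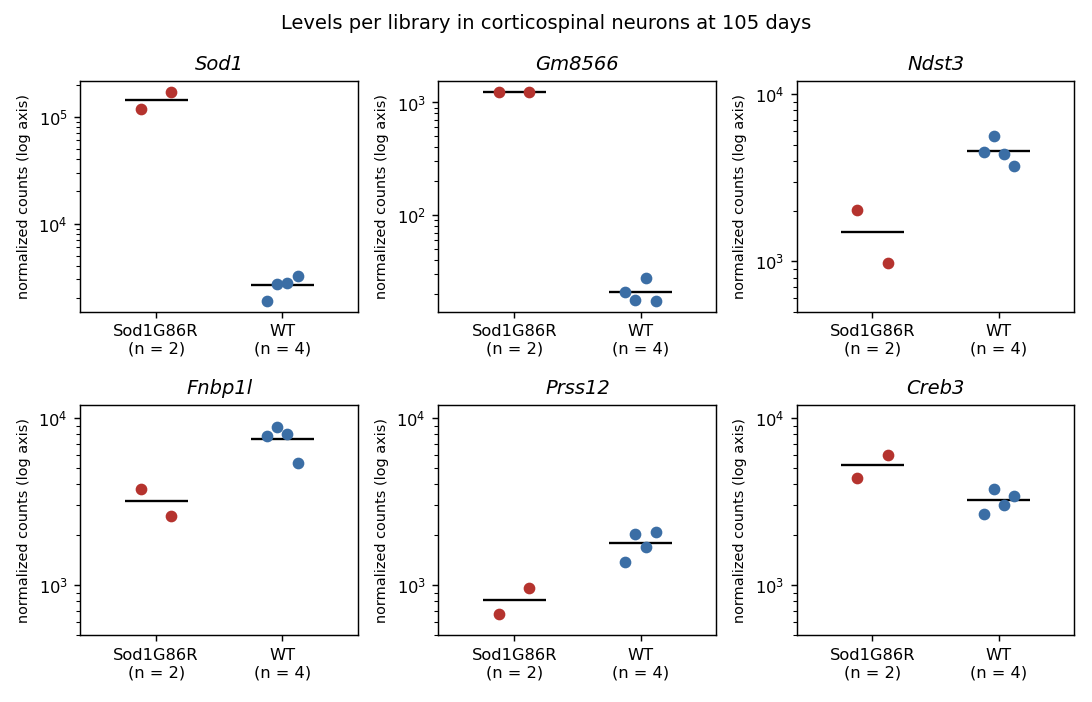
Normalized counts (log axes) in CSN at 105 days for the 4 genes that passed and for Prss12 and Creb3, which did not. Points are libraries, with 2 Sod1G86R libraries at left and 4 WT libraries at right, and bars are means; in all 6 genes the 2 groups do not overlap, as with Ndst3 at 976 and 2042 in Sod1G86R against 3720 to 5645 in WT.

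Both genes that fell lie on chromosome 3. Ndst3 encodes an enzyme that removes acetyl groups from heparan sulfate and sulfates it. Its level was 2042 in Sod1G86R library 9 and 976 in library 13, against 4508, 5645, 4368 and 3720 in WT libraries 9, 11, 12 and 13. Every Sod1G86R value was below every WT value, with a log2 fold change of -1.65 (SE 0.268, adjusted p = 0.0066). Fnbp1l encodes an F-BAR protein that links membrane curvature to actin assembly. It stood at 3753 and 2585 in Sod1G86R libraries 9 and 13, against 7818, 8890, 8021 and 5379 in the WT libraries in the same order as for Ndst3. It also fell without overlap (log2 fold change -1.24, SE 0.227, adjusted p = 0.0326). Without Sod1G86R library 13 neither gene passed, nor in a fit of only the 6 libraries compared (adjusted p = 0.317 for both). With edgeR both had an adjusted p of 0.0573. Fnbp1l also lost its call with no filter on low genes, with quantile normalization (adjusted p = 0.0505), with a covariate for mitochondrial reads (adjusted p = 0.0782), and without any 1 of Sod1G86R library 9 and WT libraries 9, 11 and 12.

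The pair belongs to the longest unbroken run of neighbouring genes with a fold change of 1 sign, among 9693 genes with a mean CSN level of at least 346. This run was chosen after its values were seen. It holds 22 genes from Gm26871 to Ugt8a at chr3:118430324-125938619 (GRCm38, 7.51 Mb), all below 0, with a median log2 fold change of -1.03, which is a linear ratio of 0.49. Its last gene, Ugt8a, is also in the oligodendrocyte list. The groups of Ugt8a overlapped, with 347 and 360 in Sod1G86R and 297 to 3020 in WT, highest in WT library 13. The gene before Ugt8a, Tram1l1, starts 5.89 Mb into the run. The next-longest run holds 20 genes on chromosome 19 with a median of 0.16. Per library, the median over the 22 genes relative to the WT mean was -0.91 and -0.98 in Sod1G86R CSN libraries 9 and 13, and -0.11 to 0.05 in the WT libraries. Snx7, the last gene before the run, was at 0.75 and Ank2, the first gene after it, at 0.10. The medians over the 5 Mb before and after were -0.06 (17 genes) and -0.03 (16 genes).

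Among the members of the run, Prss12 encodes neurotrypsin, a synaptic protease that cleaves agrin, and it had the smallest p after the 4 genes that passed. Its level was 669 and 966 in Sod1G86R libraries 9 and 13, against 1368 to 2072 in the WT libraries, a log2 fold change of -1.10 with an adjusted p of 0.0684, so it did not pass in the fit used here. Gclm, the modifier subunit of the enzyme that makes the precursor of glutathione, stood at 1088 and 1004 against 1241 to 1927 (-0.63). Ptbp2, a splicing regulator of neurons, stood at 1563 and 1717 against 2407 to 3158 (-0.71). F3, the tissue factor of coagulation, had the lowest fold change of the run, at -2.49, and its groups overlapped, with 89.9 and 147 in Sod1G86R and 127 to 2709 in WT. The same 22 genes were below 0 in 22 of 22 cases at each of 30, 60 and 90 days, with medians of -0.89, -0.96 and -0.82. In control cells at 105 days 20 of the 22 were below 0, with a median of -1.06 and none past the test. Most of these control libraries share genotype and title number with a CSN library, so they may not come from separate mice.

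**Figure D2:**
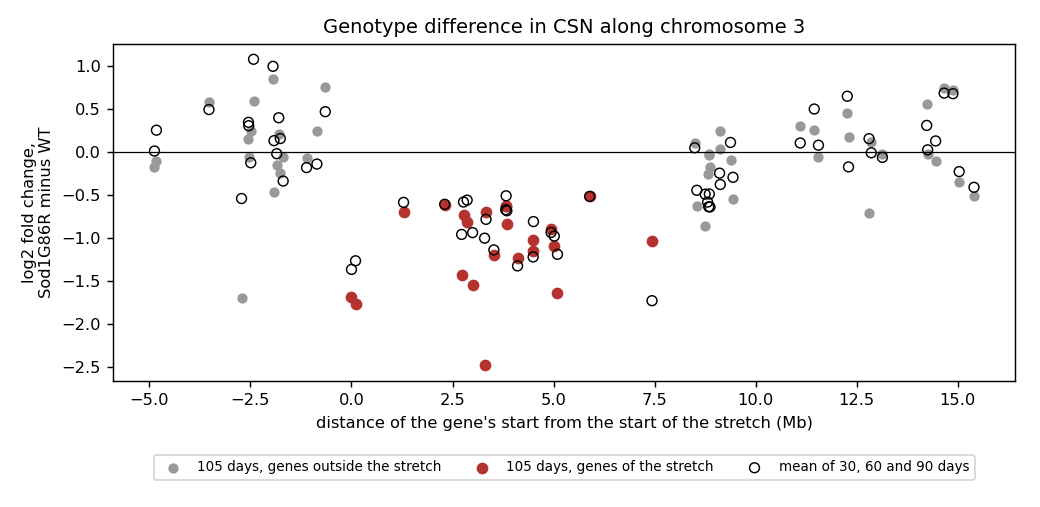
Log2 fold change of Sod1G86R over WT in CSN for genes along chromosome 3, by distance in Mb from the start of the 22-gene run. Filled points are 105 days (red for the 22 genes, grey for their neighbours) and open circles are the mean of 30, 60 and 90 days; the 22 genes lie below 0 at 105 days with a median of -1.03, while their neighbours scatter on both sides of 0.

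Creb3 stood at 4361 in Sod1G86R library 9 and 6043 in Sod1G86R library 13, against 2675, 3740, 3008 and 3424 in WT libraries 9, 11, 12 and 13. Both Sod1G86R values were above all WT values. The log2 fold change was 0.68 (SE 0.293, 95% interval 0.07 to 1.29), and it did not pass in limma (adjusted p = 0.617). At 30, 60 and 90 days the fold changes were 0.55, 0.50 and 0.95, of which that at 90 days passed (adjusted p = 0.0261). In control cells at 105 days Creb3 was at 0.31. Of 10 measured genes of the CREB3 family and its partners, 4 were separated above WT and none below, with a median of 0.24. Of all genes 12.4% were separated above and 11.8% below. The 4 include Copb1, a COPI coat subunit (0.32), and Arf4, a small GTPase of the Golgi (0.38). With quantile normalization 2 were separated above and 1 below, with a median of 0.16, and with TMM 4 were above and 1 below. Crebzf, a bZIP protein that binds the same cofactor as CREB3, had the opposite sign (-0.40), with overlapping groups.

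The unfolded protein response and the secretory pathway showed small differences. Of 27 measured unfolded protein response genes 7 were separated above WT (25.9%, against 12.4% of all genes) and 1 below, with a median of 0.17. With quantile normalization 1 was separated above and 3 below. Herpud1, part of the ER degradation machinery, stood at 5778 and 4547 in Sod1G86R libraries 9 and 13 and 2862 to 3744 in WT libraries (log2 fold change 0.66). Xbp1, the transcription factor activated by IRE1 splicing, stood at 3978 and 4211 against 2016 to 3812 (0.69). Both are separated above WT, and neither passed. Among 29 ER-to-Golgi trafficking genes 9 were separated above and 1 below (median 0.22), led by Sec24d, a COPII coat subunit on chromosome 3, at 240 and 43.5 against 260 to 550 (-1.56), and Cope, a COPI subunit, at 9648 and 12622 against 5234 to 8218 (0.77). In the integrated stress response list the median was 0.11 over 29 genes, with 7 separated above and 1 below. Its members with the smallest p were the aminoacyl-tRNA synthetases Nars (0.81), Gars (0.59) and Sars (0.46), and Asns, asparagine synthetase (0.92), all separated above WT.

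Proteasome subunits had the highest share of separated members among the lists. Of 39 subunits and regulators, 27 (69.2%, against 12.4% of all genes) had both Sod1G86R libraries above all WT libraries, none had both below, and 38 had a fold change above 0. The median was 0.54 and no member passed. Psmd13, a lid subunit of the regulatory particle, stood at 2945 and 3167 in Sod1G86R libraries 9 and 13 and 1274 to 2196 in WT libraries (log2 fold change 0.91). Psmd6, another lid subunit, stood at 6571 and 7101 against 2973 to 4768 (0.75; limma adjusted p = 0.617). For Psmc2, an ATPase of the base, the values were 9851 and 10566 against 4870 to 7883 (0.63), and Psmc6, another ATPase, was at 6134 and 7603 against 3443 to 4766 (0.78). In these 4 genes both Sod1G86R libraries were above every WT library. Psme4, an alternative activator, was the member below 0, at -0.02. The list medians at 30, 60 and 90 days were 0.61, 0.42 and 0.52, and the median in control cells at 105 days was 0.08.

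Ubiquitin, autophagy and chaperone genes were less uniform. Ubb, a polyubiquitin gene, stood at 42069 and 63538 in Sod1G86R libraries 9 and 13, against 17325 to 30125 in WT libraries (1.28, adjusted p = 0.617). Ubqln1, a shuttle to the proteasome, stood at 3328 and 4907 against 2366 to 2888 (0.63). Uchl1, a neuronal ubiquitin hydrolase, was at 0.77 and Ndfip1, an adaptor of Nedd4-type ligases, at 1.01. These 4 were separated above WT, as were 6 of the 19 ubiquitin and adaptor genes in all, with 1 below. Of 29 autophagy and lysosome genes 11 were separated above and 1 below (median 0.27). They include the vacuolar ATPase genes Atp6ap1 (1.02), Atp6v1b2 (0.88) and Atp6v0c (0.98), and Sqstm1, the p62 autophagy receptor, at 5797 and 8384 in Sod1G86R against 3304 to 5216 in WT (0.72). Among 26 heat shock chaperones 11 were separated above and none below (median 0.33). Dnaja1, a co-chaperone of Hsp70, stood at 12936 and 16751 in Sod1G86R libraries and 6003 to 8899 in WT libraries (0.98). Hspd1, the mitochondrial Hsp60, stood at 3931 and 4628 against 2388 to 3056 (0.69), and Ahsa1 (0.68) and Dnajb1 (0.61) were also separated above WT. None of these passed.

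Promoters are shown for 3 genes of these lists that were separated above WT, chosen after their values were seen as members that hold a motif known for their class. Windows run from 250 bases before to 50 after the gene's start (RefSeq, GRCm38.p6), and matches are in capitals. The letters TGACNNNGC, the core of the antioxidant response element that NRF transcription factors bind, were searched on both strands. They occur in 7 of the 33 proteasome promoters found (21.2%), in 14.5% of promoters of genes tested and in 12.5% of all promoters. The heat shock element, as GAA, TTC and GAA with 2 bases between neighbours, was searched likewise. It occurs in 4 of 20 chaperone promoters (20%), in 0.354% of promoters of genes tested and in 0.529% of all promoters. A match describes the letters and does not show binding. Psmb5, a catalytic proteasome subunit (chr14:54617946-54618245, minus strand), has its match at -47 and stood at 2743 and 3174 in Sod1G86R libraries 9 and 13, against 1484 to 2160 in WT libraries (0.65). Chordc1, a co-chaperone of Hsp90 (chr9:18292017-18292316, plus strand), has 3 overlapping matches from -4 and was at 0.62. Hsph1, an Hsp110 chaperone (chr5:149636287-149636586, minus strand), has 1 match at 36 and was at 0.47.
Psmb5: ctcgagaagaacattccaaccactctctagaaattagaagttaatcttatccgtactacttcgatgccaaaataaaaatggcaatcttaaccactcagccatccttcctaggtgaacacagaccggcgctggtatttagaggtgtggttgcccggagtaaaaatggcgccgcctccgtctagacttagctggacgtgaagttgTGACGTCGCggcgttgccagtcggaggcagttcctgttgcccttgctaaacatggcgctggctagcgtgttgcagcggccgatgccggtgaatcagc
Chordc1: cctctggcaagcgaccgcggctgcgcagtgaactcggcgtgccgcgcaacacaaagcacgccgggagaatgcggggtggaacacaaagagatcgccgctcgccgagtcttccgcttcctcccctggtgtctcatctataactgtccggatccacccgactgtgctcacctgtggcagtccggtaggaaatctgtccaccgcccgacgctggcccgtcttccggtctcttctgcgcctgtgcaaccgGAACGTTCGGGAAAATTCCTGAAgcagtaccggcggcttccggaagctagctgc
Hsph1: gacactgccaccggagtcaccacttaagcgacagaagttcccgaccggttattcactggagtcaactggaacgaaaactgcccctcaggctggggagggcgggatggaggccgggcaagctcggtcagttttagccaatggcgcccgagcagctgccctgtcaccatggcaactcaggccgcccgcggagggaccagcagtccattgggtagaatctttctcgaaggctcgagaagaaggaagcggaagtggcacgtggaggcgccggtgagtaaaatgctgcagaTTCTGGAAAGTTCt

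Genes of oxidative phosphorylation had fold changes of opposite sign in the nuclear and the mitochondrial genome. All 75 measured nuclear genes had a fold change above 0, with a median of 0.50, and 27 (36%) were separated above WT with none below. Ndufv1, a subunit of complex I, stood at 10729 and 11134 in Sod1G86R libraries 9 and 13 and 4783 to 7235 in WT libraries (0.90). Uqcrc1, a core subunit of complex III, stood at 43258 and 48760 against 20196 to 30629 (0.90), Cyc1, cytochrome c1, was at 0.83 and Ndufa10, another subunit of complex I, at 0.74. The groups did not overlap for these 4 genes. All 12 measured genes of the mitochondrial genome were below 0, with a median of -0.47, and 2 of them, mt-Atp8 and mt-Nd6, were separated below WT (16.7%, against 11.8% of all genes). That median was -0.13 without Sod1G86R library 9, -0.29 without WT library 9 and -0.03 with a covariate for mitochondrial reads. The covariate counts reads of the mitochondrial genome itself, so the last value is not a separate check. mt-Atp8, a subunit of ATP synthase, stood at 8054 and 8694 against 9253 to 15877 (-0.63). The lower values were not particular to 105 days. At 30, 60 and 90 days mt-Atp8 was at -0.64, -0.26 and -0.54, and mt-Nd6 at -0.56, -0.45 and -1.35. mt-Co3 had the other sign at 60 days (0.05). Reads of the mitochondrial genome made up 4.69% and 6.54% of the total in Sod1G86R libraries 9 and 13, and 10.8%, 7.92%, 7.78% and 5.94% in WT libraries 9, 11, 12 and 13. The ranges overlap, and the difference of -2.48 percentage points did not reach the threshold (two-sided exact permutation p = 0.267, 0.333 adjusted over 5 library measures).

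Glycolysis and mitochondrial import and dynamics genes followed the nuclear respiratory genes in sign. Of 18 glycolysis genes 11 were separated above WT (61.1%) and 1 below, with a median of 0.41. Pgk1, phosphoglycerate kinase, stood at 4654 and 6143 in Sod1G86R libraries 9 and 13 and 1996 to 3594 in WT libraries (1.05), and Ldhb (0.86), Tpi1 (0.92) and Aldoa (0.74) were also separated. Of 23 mitochondrial quality genes 14 were separated above and none below (median 0.41), among them the adenine nucleotide carrier Slc25a4 (0.70) and the porins Vdac1 (0.67) and Vdac2 (0.74). None passed.

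These list medians depend on how libraries are scaled and on the mitochondrial share. With quantile normalization they were 0.29 for the proteasome, 0.23 for nuclear respiratory genes, 0.12 for glycolysis, 0.18 for mitochondrial quality, 0.13 for chaperones, 0.07 for autophagy and lysosome, 0.05 for ubiquitin and adaptors, 0.13 for the unfolded protein response and 0.02 for ER-to-Golgi genes. All stayed above 0. With a covariate for log2 mitochondrial share they were 0.33, 0.31, 0.24, 0.24, 0.19, 0.20, 0.17, 0.10 and 0.07 in the same order. With quantile normalization, which separated 10.6% of all genes above WT and 7.65% below, the members separated above were 17 of the proteasome, 20 nuclear respiratory, 5 glycolysis, 6 mitochondrial quality, 6 chaperone and 2 ER-to-Golgi genes. For glycolysis 2 were then separated below. Leaving out a library makes separation easier for every gene. Without Sod1G86R library 9, when 24.5% of all genes were separated above WT, 58 nuclear respiratory and 36 proteasome genes were. Without WT library 13, with 18.5% of all genes, the counts were 63 and 33. Without Sod1G86R library 13 the nuclear respiratory median was 0.29. The part of the mitochondrial share in these differences was not tested.

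**Figure D3:**
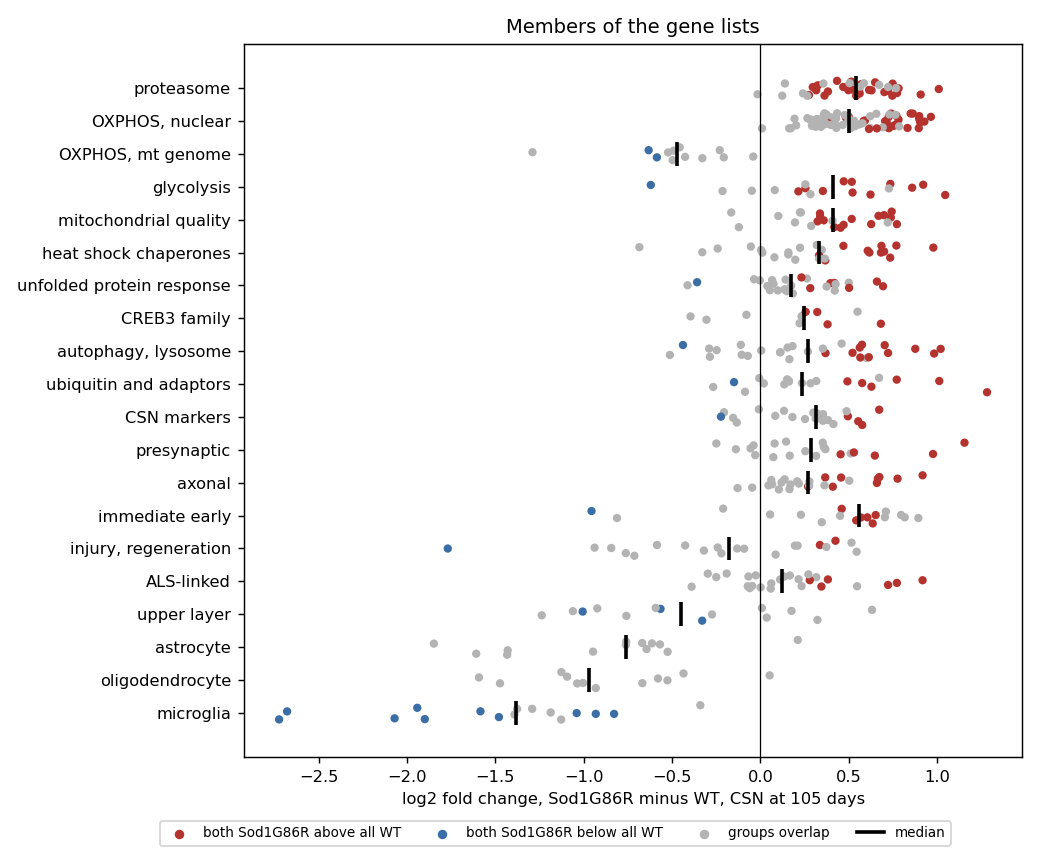
Log2 fold change (Sod1G86R over WT, CSN at 105 days) of each measured member of 20 gene lists, none of which holds Sod1. Red points have both Sod1G86R libraries above all 4 WT libraries, blue points both below, grey points overlap, and black bars are medians; proteasome members lie right of 0 with a median of 0.54 and all 16 microglia markers lie left of it with a median of -1.38.

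Neuronal identity was measured with 22 CSN markers, of which 4 were separated above WT and 1 below (18.2% and 4.55%), with a median of 0.32. Bcl11b, the transcription factor that specifies corticospinal neurons, stood at 10227 and 8702 in Sod1G86R libraries 9 and 13, against 8864 to 11907 in WT libraries (-0.13). Fezf2, a transcription factor upstream of Bcl11b, was measured at 8639 and 10059 against 6371 to 9460 (0.32). Both overlap between the groups. Pcp4, a calmodulin regulator, stood at 44586 and 56231 against 26280 to 39872 (0.67) and was separated, as was Parm1 (0.50), and none passed. Slc17a7, the vesicular glutamate transporter, differed by 0.04 (5540 and 4581 against 4170 to 5422). Among 14 upper-layer markers none was separated above and 3 were separated below, with a median of -0.45 that was -0.12 without Sod1G86R library 9 and -0.24 with quantile normalization. An example is Rasgrf2, a Ras exchange factor, at 85.8 and 99.3 against 161 to 341 (-1.01). Of 11 GABAergic markers 3 were separated above and 3 below, with a median of 0.28 that was -0.64 without Sod1G86R library 13. Their summed level was 48726 and 56017 in Sod1G86R libraries 9 and 13 and 21122 to 35733 in WT libraries, without overlap. Most of this sum is 1 gene, Lamp5, at 46500 and 50586 in Sod1G86R against 18753 to 34593 in WT (0.92). The sum therefore does not describe the other GABAergic markers. Gad1 stood at 21.3 and 152 in Sod1G86R and 28.7 to 205 in WT, and Gad2 at 44.6 and 337 against 70.8 to 118. Sst, an interneuron peptide, was at 2673 in Sod1G86R library 13, 22 in Sod1G86R library 9 and 23.6 to 200 in the WT libraries.

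Synaptic and axonal genes had medians near those of the CSN markers. Of 20 presynaptic genes 5 were separated above WT and none below (median 0.29). Rab3a, a small GTPase of synaptic vesicles, stood at 48064 and 59825 in Sod1G86R libraries 9 and 13 and 19552 to 29622 in WT libraries (1.16). Snap25, a plasma membrane SNARE, stood at 231875 and 328974 against 108746 to 169838 (0.98). The groups were well apart in both genes, and neither passed (adjusted p = 0.617 for each). Of 25 axonal cytoskeleton and transport genes 9 were separated above and none below (median 0.27), led by the tubulins Tubb4a (0.78) and Tuba4a (0.92) and the stathmins Stmn1 (0.67) and Stmn3 (0.67). With quantile normalization the presynaptic median was 0.00, the axonal median -0.01 and the CSN marker median 0.07, so the sign of these medians depends on the scaling. Glutamate receptor and postsynaptic genes had a median of -0.03 (22 genes, 1 separated each way), and ion channels 0.01 (26 genes, 3 separated above and 1 below). With quantile normalization the 2 medians were -0.25, with 5 separated below, and -0.13, with 4 separated below. Among the channels was Scn3a, a sodium channel of immature neurons, at 895 and 616 against 1208 to 1495 (-0.78).

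Immediate early genes, which respond to neuronal activity and also to handling of cells, had a median of 0.56 over 18 genes, with 6 separated above and 1 below. The count above was 13 without WT library 12, and the median was 0.32 with quantile normalization. Fos stood at 2812 and 3385 in Sod1G86R libraries 9 and 13 and at 905, 1676, 3721 and 1691 in WT libraries 9, 11, 12 and 13 (0.80), so WT library 12 overlapped both. Dusp6, a phosphatase that turns ERK off, stood at 6203 and 7128 against 3606 to 5158 (0.64). Bdnf, a neurotrophin, was at 0.70 with overlap. Npas4, which is induced by calcium entry, had the other sign, at 385 and 186 against 406 to 719 (-0.96). The list medians at the earlier ages were -0.14 at 30 days, 0.01 at 60 days and -0.48 at 90 days.

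Genes of axon injury, cell death and ALS gave no common direction. The injury and regeneration list had a median of -0.18 over 20 genes (2 separated above, 1 below), which was 0.01 without WT library 12 and 0.14 with the strict filter on low genes. Atf3, a transcription factor induced in injured neurons, stood at 0.69 and 35.7 in Sod1G86R libraries 9 and 13, against 52.4, 53.4, 712 and 111 in WT libraries 9, 11, 12 and 13 (-1.77), and Gap43, a growth cone protein, was at 0.54 with overlap. The apoptosis and p53 list had a median of 0.09 over 27 genes. Hrk, a proapoptotic BH3 gene, stood at 279 and 394 against 563 to 626 (-0.79), and Phlda3, a p53 target, at 813 and 1435 against 465 to 772 (0.84). The antioxidant list had a median of 0.23 over 25 genes, with 7 separated above, such as the peroxiredoxins Prdx3 (0.92) and Prdx5 (0.78), and 2 below, Gclm and Nfe2l2. Without Sod1G86R library 13 its median was -0.03. Of 26 ALS-linked genes other than Sod1, 6 were separated above and none below (median 0.12). With quantile normalization 4 were above and 3 below, with a median of -0.02. The list was led by Sqstm1, Tuba4a and Chchd10, a mitochondrial cristae protein (0.77). Cholesterol synthesis genes had a median of 0.24 over 20 genes with 7 separated above, calcium buffers and pumps 0.07 over 18 with 3 above, and glucocorticoid response genes 0.16 over 13 with 1 separated each way. With quantile normalization these medians were 0.12, -0.22 and -0.01.

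Markers of microglia had lower values in Sod1G86R CSN than in WT CSN. All 16 microglia markers had a fold change below 0, with a median of -1.38, and 10 (62.5%, against 11.8% of all genes) were separated below WT. Their summed level was 3060 and 5802 in Sod1G86R libraries 9 and 13, and 12612, 8145, 24627 and 13061 in WT libraries 9, 11, 12 and 13, so the groups did not overlap. P2ry12, a purine receptor of resting microglia, stood at 99.5 and 854 in Sod1G86R libraries and 1233 to 3446 in WT libraries (-2.72, SE 1.25). Trem2, a phagocyte receptor, stood at 86.5 and 86.2 against 201 to 540 (-1.48), and Cx3cr1, the fractalkine receptor, at 78.9 and 99.3 against 123 to 531 (-1.04). No marker passed. No microglia marker was at 0 in any of the 6 libraries. Without Sod1G86R library 9 the list median was -0.91, and it was -1.87 without Sod1G86R library 13. In control cells at 105 days the summed level was 108922 to 212460 in Sod1G86R and 119911 to 327799 in WT, and the list median was -0.31. In these bulk libraries fewer cells of a type and less RNA per cell cannot be told apart.

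Astrocyte and oligodendrocyte markers had low medians (-0.76 over 13 genes and -0.97 over 12) but none was separated. The summed astrocyte level was 41124 and 43095 in Sod1G86R libraries 9 and 13, and 133490, 25465, 124870 and 44515 in WT libraries 9, 11, 12 and 13. WT libraries 9 and 12 were high, WT library 11 was lowest, and the groups overlapped. For oligodendrocytes the sums were 16718 and 48343 in Sod1G86R and 41339, 10215, 63054 and 346346 in WT. The astrocyte median was -0.44 without WT library 9, -0.45 without WT library 12 and -1.38 without WT library 11. Without WT library 13 the oligodendrocyte median was -0.01. The glial score per library, a mean log2 level of the markers of the 3 glial types, was 8.33 and 9.07 in Sod1G86R libraries and 8.31 to 10.6 in WT libraries (two-sided exact permutation p = 0.333, the same after adjustment over 5 measures). With this score as a covariate the proteasome median was 0.57 and the nuclear respiratory median 0.71. The microglia median was then -0.68, and the astrocyte and oligodendrocyte medians turned to 0.38 and 0.53. These last 3 lists supply the markers of the score, so their medians under it are not a separate check. Complement and cytokine genes had a median of -0.77 over 10 genes, with 3 separated below, such as the chemokine Ccl2 at 9.61 and 11.3 against 88.4 to 1568 (-3.00). Without WT library 12, whose summed level of these genes was 5886 against 1626 to 1787 in the other WT libraries, the median was -0.40. Oligodendrocyte precursor markers had a median of -0.74 over 8 genes, and -0.12 with the glial score as a covariate. Endothelial and mural markers had -0.46 over 14, which was 0.22 without Sod1G86R library 9 and -0.96 without Sod1G86R library 13. Disease-associated microglia genes had a median of -0.82 over 11 genes, with 1 member separated above and 1 below. Interferon and antigen presentation genes had -0.35 over 18, with 1 separated above and 3 below. The interferon median was -0.06 without Sod1G86R library 9, -0.12 without WT library 12 and 0.04 with the strict filter on low genes.

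The 105-day values were set beside the earlier ages. In limma 3 genes passed at 30 days (0.0157%), 6 at 60 days (0.0314%) and 928 at 90 days (4.86%), from 3 Sod1G86R and 4 WT libraries at 30 days and 4 of each at 60 and 90 days. The 105-day libraries share none of these samples, though all ages share 1 estimate of the spread. Of the 664 genes higher at 90 days, 624 (94%) were above 0 at 105 days, against 47.1% of all genes. Of the same 664 genes, 404 (60.8%, against 12.4% of all genes) were separated above WT. Their median was 0.50 at 105 days and 0.93 at 90 days, where they were chosen for their size. Of the 264 genes lower at 90 days, 243 (92%) were below 0 at 105 days. Most genes were below 0 at 105 days in any case, as only 47.1% of all genes were above 0. Separated below were 97 (36.7%, against 11.8% of all genes), and the medians were -0.35 at 105 days and -0.98 at 90 days. Only the same 4 genes of these passed at 105 days. In control cells at 105 days the 2 sets had medians of 0.11 and -0.02.

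**Figure D4:**
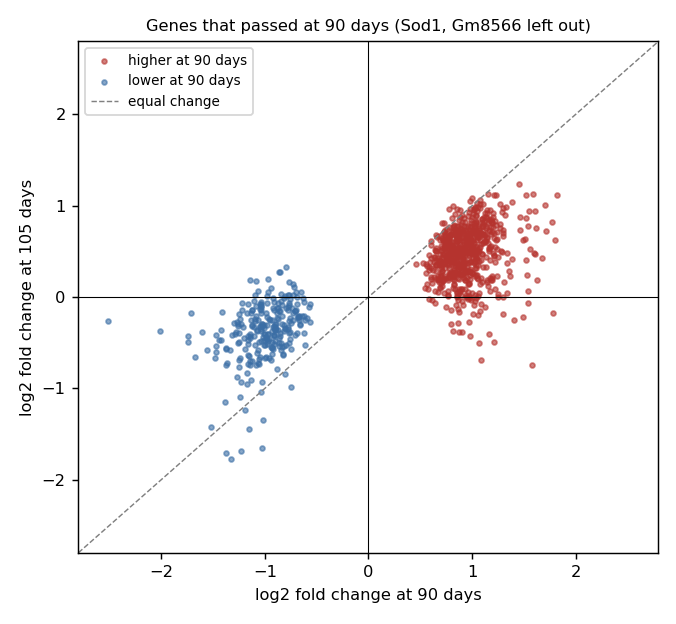
Log2 fold change (Sod1G86R over WT, CSN) at 105 days on the y axis against 90 days on the x axis for genes that passed at 90 days, with Sod1 and Gm8566 left out. Red points were higher and blue points lower at 90 days, and the dashed line marks equal change; most points keep their sign and lie nearer 0 at 105 days (medians 0.50 and -0.35, Sod1 and Gm8566 included).

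No gene passed the test of whether its genotype difference at 105 days departs from the mean of 30, 60 and 90 days (0 of 19093, 0%, with 380 at an unadjusted limma p under 0.05). The genes with the smallest p on the higher side were Nr4a2, Nab2 and Fos, which are immediate early genes or their feedback regulator. Nr4a2 stood at 597 and 659 in Sod1G86R libraries 9 and 13 and 252 to 518 in WT libraries at 105 days, and its departure was 1.09 (SE 0.329). Nab2 stood at 1193 and 1404 against 649 to 780, with a departure of 0.80, and Fos departed by 1.12. Among those on the lower side were Hyal2, a hyaluronidase, at 355 and 181 against 302 to 551 (-1.40), and Tpmt, a thiopurine methyltransferase, at 241 and 205 against 351 to 598 (-1.32). These 5 genes had a limma adjusted p of 0.9999 for the departure. The genes with the smallest p on the higher side of the 105-day comparison after Sod1 and Gm8566 were Tsc22d1 and Trappc3. Tsc22d1, a leucine zipper protein, stood at 23241 and 27178 in Sod1G86R libraries 9 and 13 and 6242 to 17131 in WT libraries (1.19), and Trappc3, part of a vesicle tethering complex, at 3597 and 4628 against 1655 to 2098 (1.12). They did not pass (adjusted p = 0.541 for both).

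**Figure D5:**
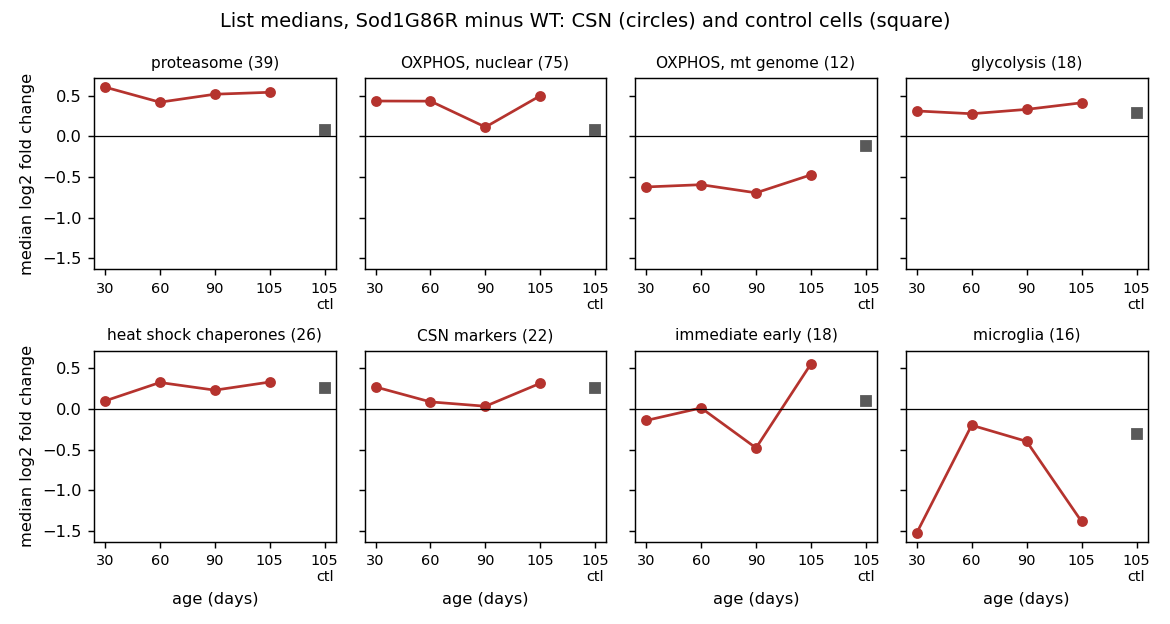
Median log2 fold change (Sod1G86R over WT) of the members of 8 gene lists at 30, 60, 90 and 105 days in CSN (circles) and at 105 days in control cells (square, ctl), with the number of measured members in brackets. Proteasome medians lie between 0.42 and 0.61 at all ages in CSN against 0.08 in control cells, and the immediate early median is 0.56 at 105 days against -0.48 to 0.01 before.

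Control cells of 105 days gave 2 passing genes of 20944 (0.00955%), Sod1 (4.62) and Gm8566 (3.91), both higher in Sod1G86R. Ndst3 stood at 313 to 905 in Sod1G86R control cells and 1184 to 2482 in WT control cells (-1.46, adjusted p = 0.568), and Fnbp1l at 1061 to 1690 against 1920 to 5768 (-1.04). Neither overlapped between the genotypes. The test of the difference between CSN and control cells called no gene of 22032 (0%, with 725 at an unadjusted limma p under 0.05). Each CSN library of 105 days has a control cell library of the same genotype and title number, which may mark the same mouse. The main fit took such libraries as independent, and a block on them also called 0 genes. Ndst3 and Fnbp1l differed between the cell types by -0.19 (SE 0.443) and -0.20 (SE 0.397). The smallest p on the higher side belonged to Tdrd7, a granule protein (1.64), Acly, which makes cytosolic acetyl-CoA (1.02), and Wfs1, an ER membrane protein (2.25). In Wfs1 the Sod1G86R and WT CSN levels were 671 to 725 and 315 to 630, and those of control cells were 612 to 1210 and 1108 to 5116. Among those on the lower side were Cavin2 (-2.77) and Ccdc13 (-2.53), whose CSN levels were at most 35.7 in Sod1G86R and at most 248 in WT.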

How the data were processed

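Total RNA of mouse CSN and control cells was extracted with Trizol and made into full-length cDNA with SMART-Seq v4 and into Nextera XT libraries, per the labels' protocols. The authors mapped paired reads of 50 bases with STAR 2.7.0 (GRCm38) and counted them on Ensembl 87 genes, as the design text of the series states. Per the submitters' processing notes, edgeR and mm10 were also named. The kit marks no strand, so reads of overlapping or antisense genes cannot be told apart.

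The authors' deposited table holds signal values, normalized counts for 45337 genes, of which 44987 matched a symbol. The normalization method was not given in the sources used here. Each library has 1 step of which 100% of its values are multiples (tolerance 0.001), which gave back whole reads. Without molecular identifiers, reads are not independent molecules.

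The filter kept genes reaching 34.6 (1 ppm of the median column total) in at least 3 libraries. The linear model on log2(value + 34.6) used limma 3.58.1 under R 4.3.3 (trended, robust prior, 1 coefficient per group, 29 CSN libraries, or 28 control cell libraries, or all 57). Adjusted p-values are Benjamini-Hochberg over all genes kept. Library measures had two-sided exact permutation tests over 15 arrangements. Separated means that both Sod1G86R libraries lay above, or below, all 4 WT libraries. Alternatives were other pseudocounts and filters, quantile normalization, TMM, array weights, 3 covariates, only the libraries of the contrast, a replicate block, edgeR 4.0.16, DESeq2 1.42.0 and leaving out each library. The fit was tested on simulated data. Genes named are Sod1, Creb3, those with the smallest p where fewer than 3 passed in a direction (mean of at least 346, no predicted, clone, Riken or receptor names), up to 4 list members with the smallest p, and markers. Others, such as those of the chromosome 3 run and the promoters, were chosen after their values were seen. All members and lists were chosen with earlier results of these data known. Coordinates are those of GENCODE M21 and RefSeq. A few genes and sequences chosen by these rules are not reported here.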

Additional observations from a re-analysis of the deposited data

Results flagged for a closer look

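In 50 groups of 4 WT CSN libraries that were looked at (genes, lists and library measures), 4 had 1 library far from the other 3, judged by its gap to the nearest value as a share of the whole range. Chance flags about 1 in 20 such groups. For the number of genes above 0 the share was 0.856, from WT library 13 with 38016 genes. For the mean log2 level of the apoptosis and p53 list it was 0.855, for complement and cytokine genes 0.868 and for heat shock chaperones 0.941.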

How the results depend on the processing

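Sod1 passed in every alternative, and Gm8566 in every one in which it was tested (with only the 6 libraries of the contrast, 2 reached the filter and it was left out). The count of genes that passed at 105 days was 4. It was 15 with array weights, 7 with a replicate block by library number, 1 with only the libraries of the contrast, 2 with edgeR and 18 with DESeq2, and it ranged from 2 to 4 when a library was left out, with 2 without Sod1G86R library 13. Numbers shared by the genotypes were not treated as pairs in the main fit. Deviations correlated by 0.07 for number 9 and 0.25 for number 13. With 2 Sod1G86R libraries their deviations mirror each other, so these are not separate checks and do not settle the question. With the block, the consensus correlation by number over the CSN libraries was 0.27. Genes with an unadjusted limma p under 0.05 then numbered 2452, against 1531 without it. The block kept all 4 genes and added Prss12, Gm26871 and Snhg8. Prss12 also passed with the strict filter, quantile normalization, TMM, array weights, DESeq2 and without WT library 9. In control cells DESeq2 called 9 genes against 2 in the main count, and the difference between cell types had 0 to 1 when a library was left out, with 1 without Sod1G86R control library 12.

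The genes whose values turned sign had not passed. Leaving out 1 library gave -1.31 to 0.18 for Slc17a6, -2.32 to 0.14 for Aspa and -1.95 to 0.0515 for H2-K1, with the values above 0 coming without Sod1G86R library 9 and, for Aspa, also without WT library 13. With the glial score as a covariate Gja1 was at 0.45, Aspa at 0.0788, Opalin at 0.35 and Olig1 at 0.29. Gja1, Aspa and Opalin are among the markers that make up this score, so their values under it are not a separate check. Grin2a was at -0.0195 with quantile normalization. The cause was not tested. The 2 Sod1G86R libraries leave a median interval of 0.68 log2 units to either side.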
